A study of Mus musculus with 7 samples.

Results

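Mitochondria make ATP by oxidative phosphorylation. Complexes I to IV of the respiratory chain pass electrons from NADH and succinate to oxygen. Complexes I, III and IV pump protons across the inner membrane, and complex V, the ATP synthase, uses the returning protons to make ATP. Most of their subunits are encoded in the nucleus, by genes that nearly every cell transcribes, and the promoters of these genes are known for binding sites of nuclear respiratory factor 1 (NRF1), of ETS factors such as GABPA, and of YY1. The nuclear genes of the 5 complexes were described here through the binding of Tip60, p400 and Hdac6 around their transcription start sites (TSSs) in mouse embryonic stem cells (ESCs). Tip60-p400 is a chromatin complex in which Tip60 (Kat5) acetylates histones and p400 (Ep400) is the ATP-dependent remodeler, and Hdac6 is a class II deacetylase.

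The genes were taken by symbol: those that begin with Nduf, Uqcr or Atp5, those that begin with Cox followed by 4, 5, 6, 7 or 8, and the genes Sdha to Sdhd. This gave 99 of the 36733 TSS rows in the files and 86 of 17689 gene symbols, and 10 genes had more than 1 row. All 99 rows had values in all 7 samples. Their roles were subunits of complexes I to V, 3 assembly factors of complex I, the supercomplex factor Cox7a2l, the ATP synthase relatives Atp5s and Atp5sl, and Cox4nb, which is a neighbour of Cox4i1 and shares only its name.

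The 7 samples were E14 mouse ESCs, with 1 sample per condition and no replicates. Flag ChIP-seq was done in Tip60-H3F ESCs, in which endogenous Tip60 carries a C-terminal histidine and Flag tag (H3F) on 1 allele, upon GFP knockdown (KD), the control, and upon Hdac6 KD. It was also done in Hdac6-H3F ESCs upon GFP KD and upon Tip60 KD, and in ESCs without a tag. Endogenous p400 was precipitated with an antibody to p400 upon GFP KD or Hdac6 KD, and has no control precipitate in these files. The KD samples were taken 72 hr after infection. The Hdac6 ChIP sample titled as Tip60 KD is called Hdac6 KD in another of its labels, and it is named here by its title; the files hold no measure of KD efficiency. Each tagged line has 1 background sample, that of the untagged cells, for both Tip60 and Hdac6.

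The deposited values are coverage in steps of 1 read, so reads could be counted. The samples were normalized to between 9226700 and 31375500 reads. A row was measured by its reads within 500 bp of the TSS, and over all rows the median was 8 to 21 reads, depending on the sample. At the respiratory genes the medians were 16 reads in the untagged sample, 19 for Tip60 upon GFP KD, 14 for Tip60 upon Hdac6 KD, 15 for Hdac6 upon GFP KD, 12 for Hdac6 upon Tip60 KD, 31 for p400 in the control KD and 22 in its Hdac6 KD. The reads of a row in 2 samples were tested with an exact binomial test, conditional on their sum, with Benjamini-Hochberg adjustment over all rows in the table and a threshold of 0.05. Such a test compares 2 libraries. Its p-values and the 95% intervals given here cover counting error and leave out the variation between cultures, and reads of identical sequence count as separate reads.

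The promoters of 5 genes are shown as examples, chosen by their read values. They are the 250 bases before the TSS and the 50 bases from it on, read from the mm9 genome on the gene's strand, with the letters of the searched motifs in capitals. The motifs, searched on both strands, were CGCANGCG (NRF1), CCGGAAG (ETS factors), AAGATGGC (YY1), GGGCGG (Sp1) and TATAAA (the TATA box). Atp5g2 (chr15:102501429-102501728, minus strand) had the most p400 and Tip60 reads of all members, Ndufs1 (chr1:63223257-63223556, minus strand) had a large fall in p400, Uqcrc1 (chr9:108838411-108838710, plus strand) had the fall in Tip60, Cox4i1 (chr8:123191940-123192239, plus strand) had the highest ratio of Hdac6 over the untagged sample, and Cox7b2 (chr5:71939395-71939694, minus strand) was the lowest in p400 among the subunits of complex IV.
Atp5g2: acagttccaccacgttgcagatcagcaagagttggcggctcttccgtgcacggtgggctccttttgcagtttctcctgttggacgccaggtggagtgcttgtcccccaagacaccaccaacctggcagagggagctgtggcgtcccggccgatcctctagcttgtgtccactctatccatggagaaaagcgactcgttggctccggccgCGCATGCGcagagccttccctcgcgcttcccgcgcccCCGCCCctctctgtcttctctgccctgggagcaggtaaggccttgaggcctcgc
Ndufs1: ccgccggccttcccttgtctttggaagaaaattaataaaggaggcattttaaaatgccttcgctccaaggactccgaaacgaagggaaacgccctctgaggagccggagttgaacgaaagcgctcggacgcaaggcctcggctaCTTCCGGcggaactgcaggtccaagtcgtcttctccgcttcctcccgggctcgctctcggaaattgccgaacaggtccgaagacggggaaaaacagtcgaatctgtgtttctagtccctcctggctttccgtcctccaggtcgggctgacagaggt
Uqcrc1: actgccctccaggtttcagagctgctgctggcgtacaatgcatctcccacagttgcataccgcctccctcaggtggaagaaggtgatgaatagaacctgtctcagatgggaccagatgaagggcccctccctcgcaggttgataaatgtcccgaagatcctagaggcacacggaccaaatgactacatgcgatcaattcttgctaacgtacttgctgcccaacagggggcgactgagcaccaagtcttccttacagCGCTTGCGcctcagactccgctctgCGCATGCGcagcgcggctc
Cox4i1: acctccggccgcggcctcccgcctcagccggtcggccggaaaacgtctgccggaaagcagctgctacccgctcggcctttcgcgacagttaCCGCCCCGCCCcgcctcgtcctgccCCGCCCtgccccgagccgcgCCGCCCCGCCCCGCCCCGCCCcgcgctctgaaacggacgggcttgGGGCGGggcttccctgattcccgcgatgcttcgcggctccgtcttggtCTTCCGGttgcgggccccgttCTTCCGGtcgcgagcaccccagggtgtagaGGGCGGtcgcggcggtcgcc
Cox7b2: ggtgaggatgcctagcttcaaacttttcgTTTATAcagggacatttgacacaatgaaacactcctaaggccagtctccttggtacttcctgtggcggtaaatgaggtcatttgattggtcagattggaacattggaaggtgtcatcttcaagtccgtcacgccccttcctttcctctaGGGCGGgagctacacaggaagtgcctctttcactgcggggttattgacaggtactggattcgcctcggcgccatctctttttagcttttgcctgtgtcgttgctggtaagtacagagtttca
The Atp5g2 promoter held 1 NRF1 motif, at -41 to -34 bp, and 1 Sp1 motif that crosses the TSS. Uqcrc1 held 2 NRF1 motifs downstream of the TSS, at 6 to 13 bp and 31 to 38 bp. Cox4i1 held 9 Sp1 motifs, some of which overlap each other, and 2 ETS motifs, and its 300 bases were 75.3% G and C. Ndufs1 held 1 ETS motif, and Cox7b2, whose product is a testis isoform, held 1 TATAAA, far upstream at -221 to -216 bp, and 1 Sp1 motif.

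Over all 99 rows the NRF1 motif was present in 28 (28.3%), against 10.5% of the 22704 rows with a RefSeq identifier. The ETS motif was present in 27 (27.3%, against 11.1%) and the YY1 motif in 14 (14.1%, against 3.43%). The Sp1 motif was about as frequent as elsewhere, with 41.4% against 45.8%, and TATAAA was found in 8.08% against 12.5%. The promoters also were more often CpG-rich, here over 55% G and C with an observed over expected CpG ratio above 0.6, in 55 rows (55.6%, against 41.2%). A divergent neighbour, meaning a RefSeq TSS of another gene on the opposite strand within 1000 bp upstream, was present in 23 rows (23.2%, against 6.37%), which belong to 21 genes. These shares are descriptions, and a match to the letters is not a binding site. The neighbours included Gabpa beside Atp5j, Cox4nb beside Cox4i1, Timm8b 93 bp from Sdhd, Mrpl47 288 bp from Ndufb5 and Eef1b2 399 bp from Ndufs1. Reads in such a window serve both genes and cannot be assigned to one of them.

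**Figure D1:**
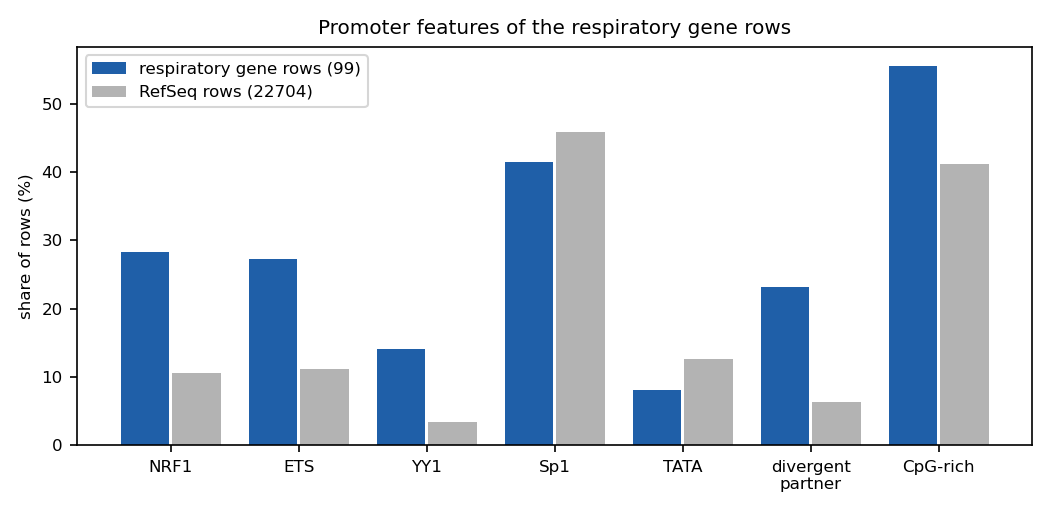
Share of rows (%) with each motif in the 300 bases around the TSS, with a divergent neighbour within 1000 bp, or with a CpG-rich promoter, for the 99 respiratory gene rows (blue) and the 22704 RefSeq rows (grey). The blue bars are higher for NRF1 (28.3%), ETS (27.3%), YY1 (14.1%) and divergent neighbours (23.2%), and lower for Sp1 and TATA.

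p400 fell at the respiratory genes upon Hdac6 KD. The comparison asks whether Hdac6 is needed for the complex to be at its targets. In the control KD the 99 rows held 12 to 67 p400 reads with a median of 31, against a median of 21 over all 22704 rows, and upon Hdac6 KD they held 8 to 35 reads with a median of 22, against 19. Scaled to depth, reads were lower in 97 of 99 rows, and in 74.6% of all rows. The fall passed the test in 23 rows of 20 genes, 23.2% of the rows, beside a background of 13.1% of all rows called lower. No row was called higher, where the background was 0.3%, and none had an unadjusted p below 0.05 in that direction. The median change was −43.1% over the members and −28.1% over all rows. Both the level and the size of the change in total reads thus stood off from all rows. Total reads include the level found in the flanks, which are defined below. Mean p400 signal of the members in this window was 0.368 ppm upon GFP KD, with 0.169 ppm in the flanks. Upon Hdac6 KD these values were 0.208 and 0.161 ppm. For all rows they were 0.254 and 0.155 ppm upon GFP KD, and 0.175 and 0.151 ppm upon Hdac6 KD. Above the flank level, the mean signal thus fell by a similar share at the members and over all rows, which was not tested. The members' higher reads upon GFP KD make a fall of a given size easier to call, and their part in the count was not tested.

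**Figure D2:**
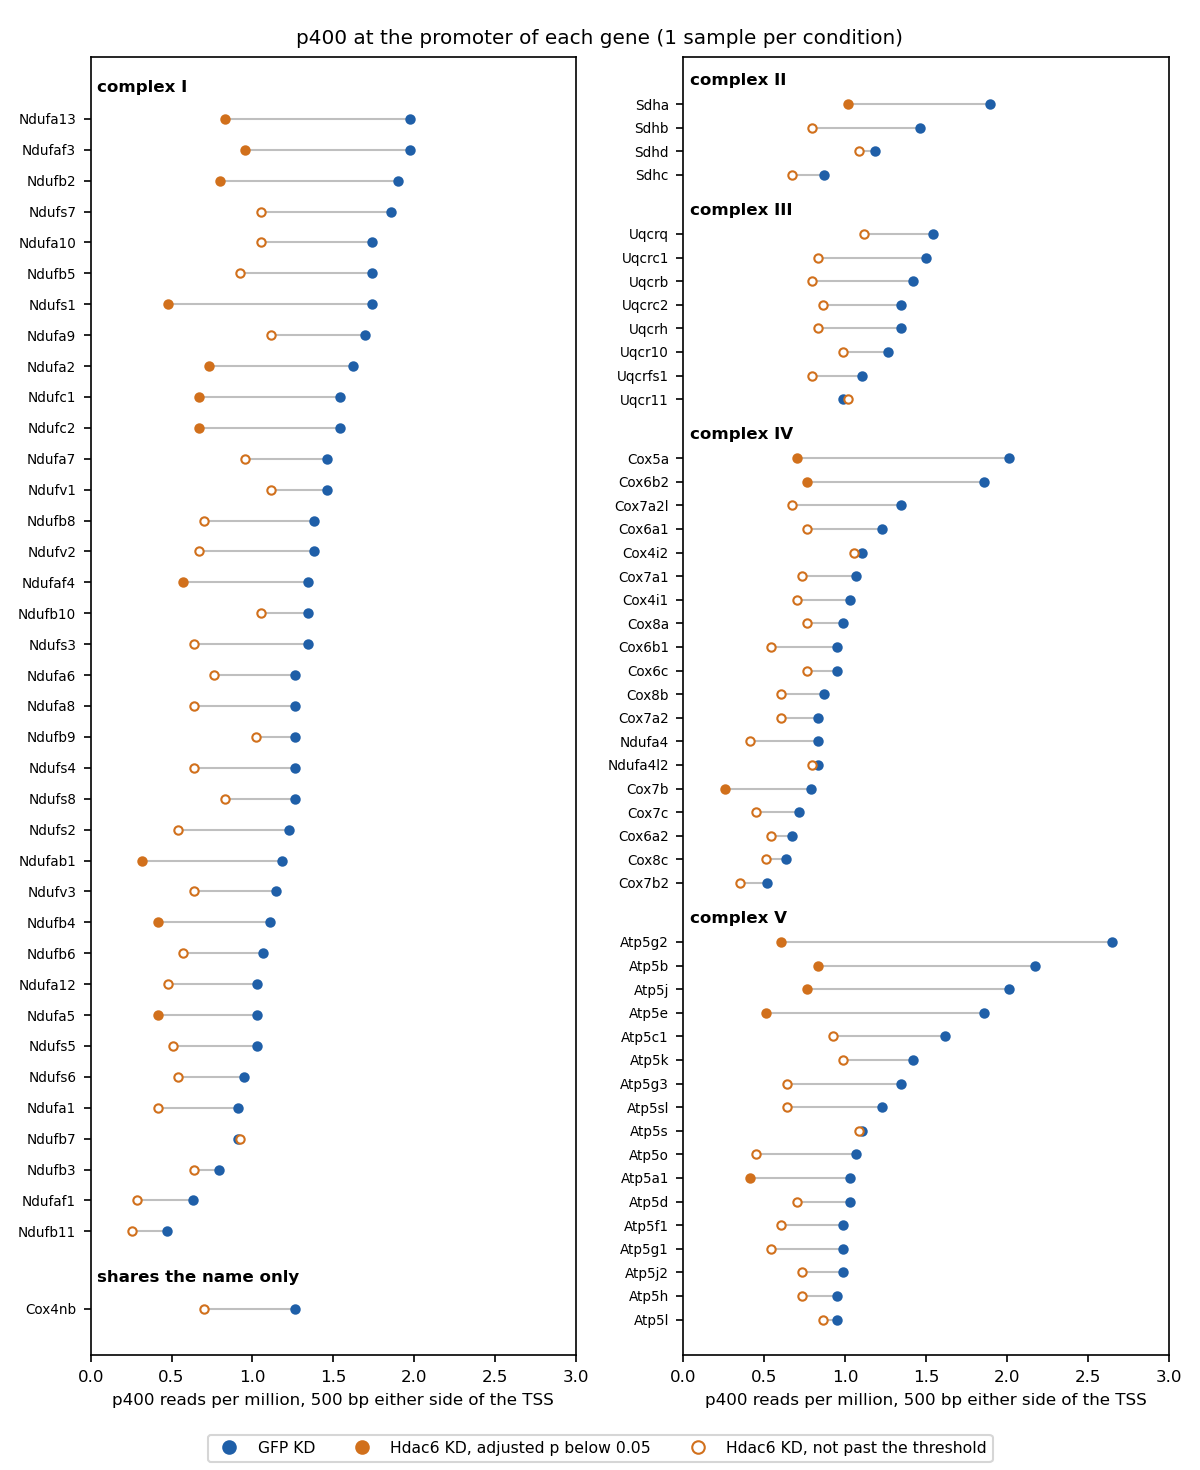
p400 reads scaled to depth (rpm) within 500 bp of the TSS for each of the 86 genes, at the row with the most p400 reads, upon GFP KD (blue) and Hdac6 KD (orange; filled where the adjusted p was below 0.05), 1 sample each. Nearly every orange point lies left of its blue point, and Atp5g2 has the longest line.

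Among the genes of complex V, ATP synthase, 6 of 21 rows were called lower, for 5 of 17 genes, and all 21 rows moved down, with a median of −44.6%. Of all rows, 13.1% were called lower, with a median of −28.1%. Atp5g2 encodes 1 of the isoforms of the c subunit, which forms the rotating ring in the membrane. It held 67 p400 reads in the control KD, the most of all members, against 19 after Hdac6 KD, and so fell by 77.1% (95% interval of the ratio, 0.130 to 0.385; adjusted p = 2.75e-07, exact test). Atp5e, the epsilon subunit of the F1 stalk, fell from 47 to 16 reads (ratio 0.275, 0.145 to 0.493; adjusted p = 0.000221, exact test). Atp5b, the catalytic beta subunit, fell from 55 to 26 reads (ratio 0.381, 0.230 to 0.619; adjusted p = 0.00124, exact test). Of the 5 F1 genes, 3 were called lower, with a median of −58.9%. The other members called lower were Atp5a1, the alpha subunit, with 26 and 13 reads, and Atp5j, coupling factor 6, at both of its rows, with 51 and 24 reads at the first. Another c subunit isoform, Atp5g1, held 25 p400 reads in the control KD and 17 after Hdac6 KD (ratio 0.549, 0.278 to 1.06; adjusted p = 0.207, exact test). Atp5h, the d subunit of the stalk, was among the lowest of the complex with 24 and 23 reads.

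In complex I, NADH dehydrogenase, 12 of 42 rows were called lower, for 11 of 37 genes, beside 13.1% of all rows. The median was −49.1%, against −28.1% over all rows, and 41 of the 42 rows moved down. Ndufs1, the largest iron-sulfur subunit of the core, fell from 44 to 15 reads (ratio 0.275, 0.142 to 0.504; adjusted p = 0.000339, exact test). A neighbouring row of the gene shares these reads, and a row far downstream held 18 and 17 reads and was not called. Ndufab1, the acyl carrier subunit, fell from 30 to 10 reads (ratio 0.269, 0.117 to 0.565; adjusted p = 0.00432, exact test). The highest levels of the complex were those of the accessory subunit Ndufa13 and the assembly factor Ndufaf3, with 50 reads each in the control KD, and 26 and 30 after Hdac6 KD. Both were called lower, as were Ndufb2, Ndufb4, Ndufc1, Ndufc2, Ndufa2, Ndufa5 and Ndufaf4. The lowest of all members was Ndufb11, an accessory subunit with its gene on the X chromosome, with 12 and 8 reads. The untagged Flag sample held 13 reads there, but it is not a control for the p400 antibody. Ndufb7 was the exception in direction, with 23 and 29 reads, a ratio of 1.02 (0.568 to 1.84).

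Complex II, succinate dehydrogenase, had 4 genes. Sdha, the flavoprotein that oxidizes succinate, fell from 48 to 32 reads and lay at the edge of the threshold (ratio 0.538, 0.333 to 0.859; adjusted p = 0.0499, exact test). Sdhb held 37 and 25 reads, Sdhc 22 and 21, and Sdhd 30 and 34, and these 3 did not pass. In complex III, cytochrome bc1, none of the 9 rows was called, and the median was −27.8%, close to that of all rows. Uqcrq, a small subunit, was the highest with 39 and 35 reads, and Uqcr11, also a small subunit, was the lowest with 25 and 32 reads (ratio 1.03, 0.593 to 1.82). The core proteins Uqcrc1 and Uqcrc2 held 38 and 26, and 34 and 27 reads. The complexes were not tested against each other.

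In complex IV, cytochrome c oxidase, 4 of 22 rows were called lower, for 3 of 19 genes, beside 13.1% of all rows. All 22 rows moved down, and the median of −31.2% was close to that of all rows, −28.1%. Cox5a fell from 51 to 22 reads (ratio 0.348, 0.201 to 0.584; adjusted p = 0.000838, exact test). Cox6b2, the testis isoform of subunit 6b, fell from 47 to 24 reads (ratio 0.412, 0.241 to 0.687; adjusted p = 0.00626, exact test). Cox7b, on the X chromosome, fell from 20 to 8 reads (ratio 0.323, 0.123 to 0.765; adjusted p = 0.0496, exact test). Thus a gene of a tissue-restricted isoform was among the 3 that passed.

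Several subunits of complex IV have a form made in most tissues and a form restricted to muscle, heart, lung or testis. Such pairs, together with Ndufa4 and its relative Ndufa4l2, made 8 pairs. They were compared within each of 4 samples, p400, Tip60 and Hdac6 upon GFP KD and the untagged sample. None of the 32 comparisons passed an exact binomial test adjusted over all of them (smallest adjusted p = 0.0964), and 4 had an unadjusted p below 0.05. These were Cox6b1 and Cox6b2 in p400 and, in Hdac6, Cox4i1 and Cox4i2 (33 and 14 reads), Cox6a1 and Cox6a2 (25 and 9), and Cox6b1 and Cox6b2 (7 and 20). The pairs were not corrected for G and C content, with which the Hdac6 calls moved, as given below. In p400, Cox6b1 held 24 reads and its testis form Cox6b2 47 (ratio 0.511, 0.299 to 0.852). In the same sample Cox4i1 held 26 and its lung form Cox4i2 28 (ratio 0.929, 0.523 to 1.64), and Cox7b held 20 and its testis form Cox7b2 13 (ratio 1.54, 0.728 to 3.37). Cox6a1 held 31 and its muscle form Cox6a2 17 (ratio 1.82, 0.979 to 3.51). Ndufa4 and Ndufa4l2 both held 21. Of Cox7a2, 21 reads were counted, and of its muscle form Cox7a1, 27. Cox8a held 25 reads, Cox8b, a muscle form, 22, and Cox8c, a testis form, 16. Reads that match several places were put by the authors at 1 of them at random, so counts of near-identical copies are uncertain. The intervals are wide, and differences of up to about the size of these bounds were not detectable at this depth.

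**Figure D3:**
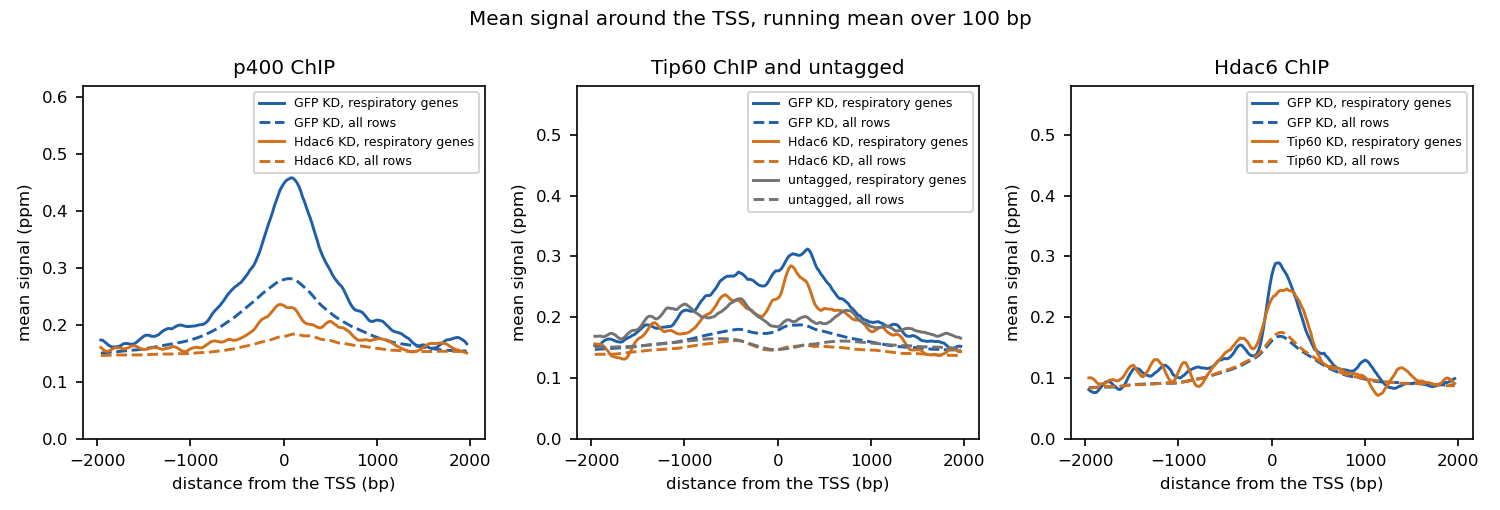
Mean deposited signal (ppm, as scaled by the authors to the normalizing reads) from −2000 to 2000 bp of the TSS, over the 99 respiratory gene rows (solid) and all rows (dashed), smoothed over 100 bp, 1 sample per line. The highest p400 signal of the respiratory rows, 0.459 ppm in the control KD, was 0.236 ppm after Hdac6 KD; Hdac6 values come from shorter extended reads and cannot be set against the other panels.

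The mean p400 profile of the members had a single maximum of 0.459 ppm at 80 bp downstream of the TSS, against 0.282 ppm for all rows. Signal between −100 and 300 bp exceeded that between −600 and −200 bp by 47.4%, against 18.2% over all rows, and 76 of 99 rows had more reads in the former window. Upon Hdac6 KD the former window fell by 48.6%, the latter by 36.2%, and the flanks, 1500 to 2000 bp from the TSS, by 4.69%. Read density in the promoter window was 2.18 times that in the flanks in the control KD and 1.29 times after Hdac6 KD. For all rows the same ratios were 1.64 and 1.16. The loss was thus a loss of the promoter maximum over nearly equal flanks.

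G and C content was close to that of other RefSeq promoters, with a median of 56.0% in the 1000 bp around the TSS against 55.2%. Over all rows, calls of lower p400 were more frequent above 55% G and C than below it, so the members were also set beside rows of like content. Between 55 and 60% G and C, 12 of 42 member rows were called lower (28.6%), against 18.3% of all rows. Between 50 and 55% they were 5 of 31 (16.1%), against 10.6%. At higher content the members lay nearer to all rows, with 4 of 15 (26.7%) against 22.5% between 60 and 65%, and 1 of 4 (25%) against 22.2% above 65%, where their median change of −38.2% was smaller than that of all rows, −42.4%. With the ratio of the libraries in flank windows of the same G and C content taken out, 27 member rows were called lower (27.3%), and 10.4% of all rows, and the median was −44.4% over the members and −22.9% over all rows.

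Tip60 upon Hdac6 KD was measured in other samples. At the members the reads fell from a median of 19 to 14, and the median change was −17.1%, against −14.1% over all rows. Lower values were found in 60 of the 99 rows, against 60.6% of all rows. A single row passed the test, 1.01% of the rows beside a background of 0.422% of all rows called lower. None was called higher (background 0.0517%), where 1 row had an unadjusted p below 0.05, and 13 had one in the lower direction. The respiratory genes thus moved with all rows in this comparison.

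The row that passed was Uqcrc1, which encodes core protein 1 of complex III. It held 30 Tip60 reads in the control KD and 6 after Hdac6 KD (ratio 0.223, 0.0758 to 0.544; adjusted p = 0.0397, exact test). Its 28 reads in the untagged sample were the highest of all members, and its Tip60 reads upon GFP KD were not above them (ratio 1.16, 0.671 to 2.02; adjusted p = 0.979, exact test). The call was lost when the top 1% of rows by untagged signal were dropped, which leaves this row out, with windows of 250 bp or 1000 bp, with scaling by flank reads, and with the correction for G and C content, where the change was −72.0% (adjusted p = 0.132, exact test). With 1000 bp the row called was that of Atp5sl. Its partner Uqcrc2, core protein 2, held 33 and 11 reads (ratio 0.371, 0.169 to 0.753; adjusted p = 0.136, exact test), and Sdhc, a membrane anchor of complex II, held 24 and 5 (ratio 0.232, 0.0691 to 0.620; adjusted p = 0.0883, exact test). At Atp5g2, where p400 fell most, Tip60 held 64 and 46 reads (ratio 0.801, 0.536 to 1.19; adjusted p = 0.705, exact test). Ndufs1 had 20 and 30 Tip60 reads, with a ratio of 1.67 (0.918 to 3.10). The change in Tip60 was not tested against that in p400. With the G and C correction the median over the members became 4.69%, and that over all rows 1.11%.

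**Figure D4:**
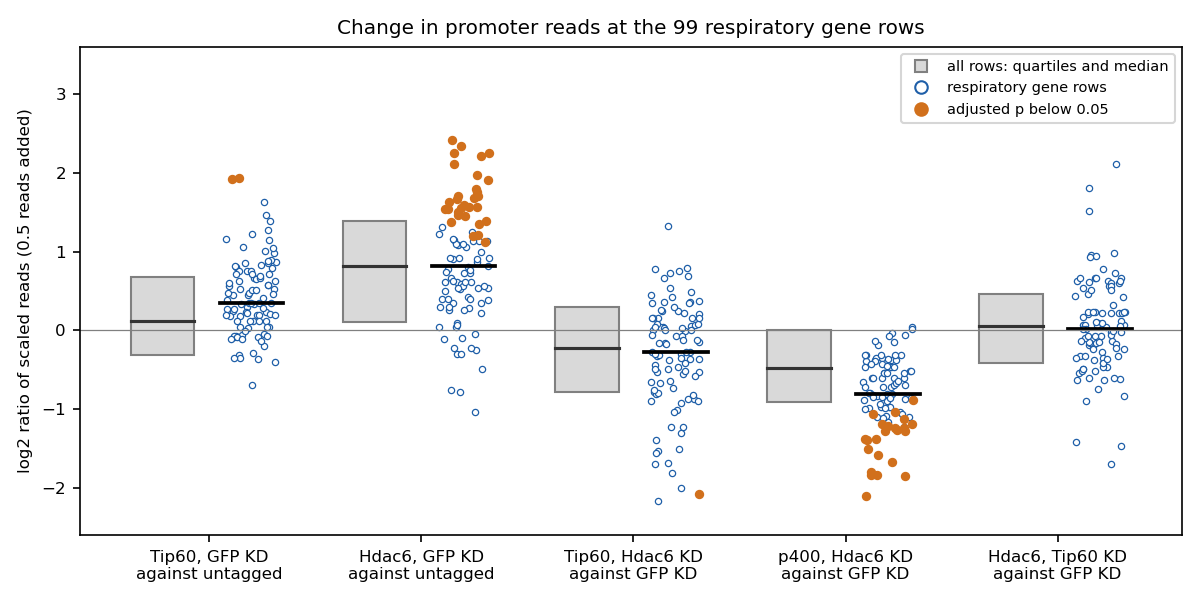
log2 ratio of scaled reads within 500 bp of the TSS in the 5 comparisons. Circles are the 99 respiratory gene rows with their median (black line), orange where the adjusted p was below 0.05; grey bars span the quartiles of all rows, with their median. In p400 upon Hdac6 KD the median of the members, −0.81, lies below that of all rows, −0.48, and in the other KD comparisons the medians lie close together.

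Against the untagged sample, Tip60 upon GFP KD was higher at most members. Scaled reads were higher in 79 of 99 rows, against 60.1% of all rows, and the median difference was 27.3%, against 8.47%. With 1 row per gene the median difference was 27.3% for the members and 17.1% for all genes. The test called 2 rows higher, 2.02% beside a background of 1.34%, and none lower (background 0.117%; 0 rows with an unadjusted p below 0.05). Atp5g2 held 18 reads in the untagged sample and 64 for Tip60 (ratio 3.86, 2.26 to 6.92; adjusted p = 3.11e-05, exact test). Uqcrc2 held 9 and 33 reads (ratio 3.98, 1.86 to 9.45; adjusted p = 0.010, exact test). Atp5j (13 and 34 reads) and Atp5e (15 and 37) had adjusted p-values of 0.0650 and 0.0665 in the exact test. In complex V, 20 of 21 rows were higher, with a median of 57.5%. Averaged over the members, Tip60 signal had a maximum of 0.312 ppm at 320 bp and a lower one of 0.275 ppm at −420 bp, and the untagged sample had its highest value, 0.231 ppm, at −400 bp. The untagged sample itself was higher at the members than elsewhere, with a median of 16 reads against 12, and its highest values were those of Uqcrc1, Ndufb9 and Sdha. Ndufb9, an accessory subunit of complex I that shares its promoter with Tatdn1, held 26 untagged and 18 Tip60 reads.

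Hdac6 upon GFP KD was also higher than the untagged sample in most members, 87 of 99 rows, against 77.8% of all rows. The test called 30 rows of 24 genes higher, 30.3% beside a background of 22.3%, and none lower (background 0.378%; 0 rows with an unadjusted p below 0.05). At an adjusted p below 0.01 the shares were 13.1% and 12.9%, and the median difference was 75.6% both for the members and for all rows. With 1 row per gene, 32.6% of the members and 29.9% of all genes were called higher. The median difference was then 79.1% for the members and 99.8% for all genes, so the members lay below. Cox4i1 had the highest ratio, with 12 untagged and 33 Hdac6 reads (ratio 5.49, 2.77 to 11.7; adjusted p = 7.70e-06, exact test), and Cox4nb, which shares the window, held 14 and 34. This promoter had no more Tip60 than untagged reads, with 11 and 12 at Cox4i1. Atp5s held 6 and 16 reads (ratio 5.33), Ndufb7 6 and 15 (4.99), and Ndufa6 9 and 20 (4.44), and all were called. At Ndufs1, by contrast, Hdac6 held 5 reads against 15 in the untagged sample (ratio 0.666, 0.189 to 1.93; adjusted p = 0.708, exact test).

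The Hdac6 calls moved with G and C content. In flank windows the ratio of Hdac6 to untagged reads rose from 0.377 below 35% G and C to 3.58 from 65% on, and the Cox4i1 window had 72.5%. With this ratio taken out, 0 of the 99 member rows and 0.049% of all rows were called higher, and the median of the members became −17.4%. The smallest adjusted p of any member in the exact test was then 0.3. Cox4i1 then had a difference of 49.6% (adjusted p = 0.842, exact test). Few flank windows had such high content. The Tip60 calls for Atp5g2 and Uqcrc2 passed with the same correction (adjusted p = 7.05e-05 and 0.0199, exact test). With windows of 250 bp or 1000 bp, and at an adjusted p below 0.01, Atp5g2 was called and Uqcrc2 was not. A difference in library composition and binding at promoters rich in G and C cannot be told apart here. In the Hdac6 sample the members' signal was 80.5% higher between −100 and 300 bp than between −600 and −200 bp, against 35.4% over all rows, and 77 of 99 rows had more reads in the former window; the part of G and C content in this difference was not tested.

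Upon Tip60 KD, no change in Hdac6 passed the test at any member. Scaled reads were lower in 48 rows and higher in 51, and the median change was 1.65%, against 4.20% over all rows. No member row was called in either direction, beside a background of 0% called lower and 0.00272% called higher over all rows, and 3 member rows had an unadjusted p below 0.05 in each direction. By a change of at least 1.5-fold in place of a test, 11 member rows (11.1%) were lower, against 17.6% of all rows. Cox4i1 held 33 and 17 reads (ratio 0.647, 0.338 to 1.20), Atp5g2 20 and 15 (ratio 0.942, 0.449 to 1.94) and Ndufs1 5 and 12 (ratio 3.01, 0.988 to 10.9), each with an adjusted p of 1 in the exact test. The Hdac6 samples were the shallowest, and changes within these intervals were not detectable.

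**Figure D5:**
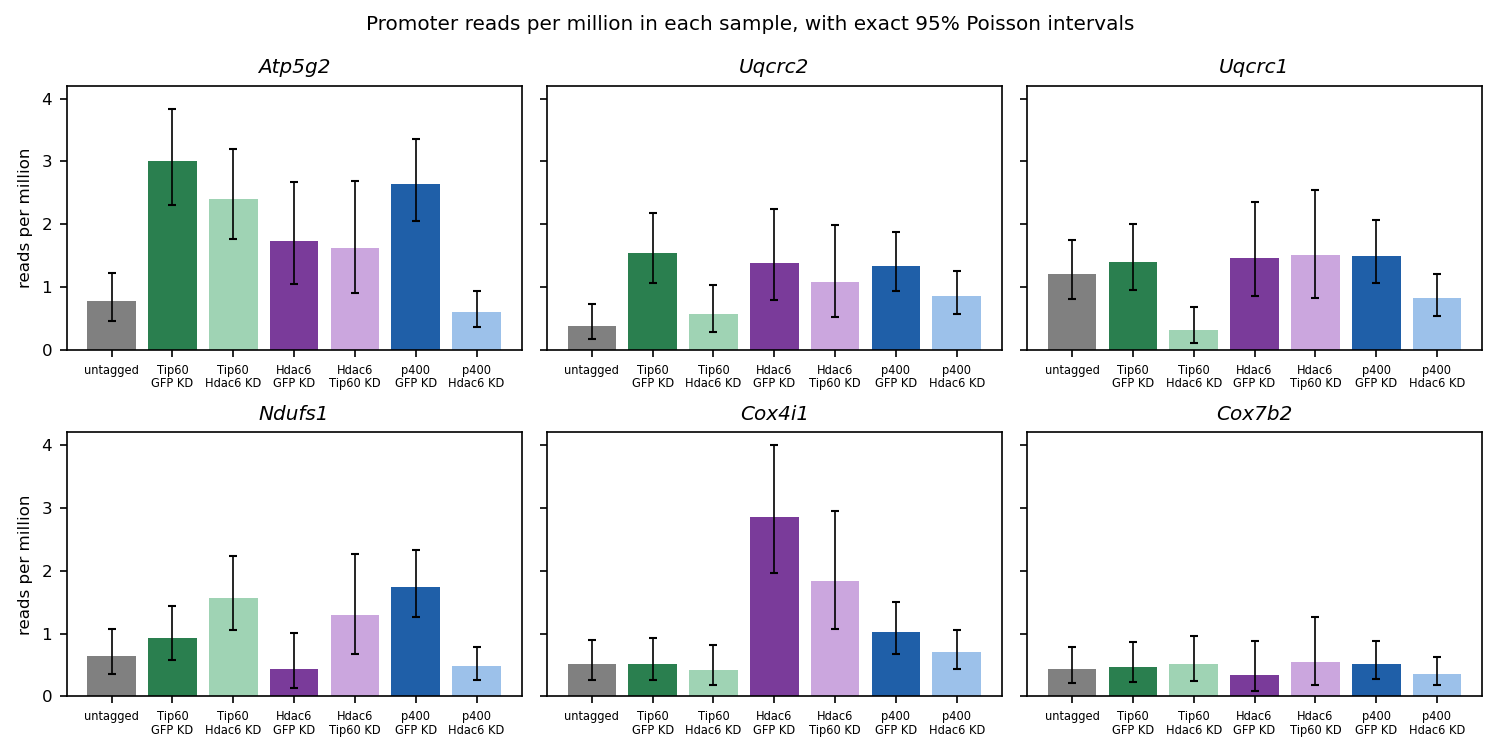
Reads scaled to depth (rpm) within 500 bp of the TSS for 6 genes in each of the 7 samples, with exact 95% Poisson intervals that cover counting error. Atp5g2 is high in Tip60 and p400 and has less p400 upon Hdac6 KD, as has Ndufs1. Uqcrc2 is high in Tip60. Uqcrc1 has fewer Tip60 reads upon Hdac6 KD, but its Tip60 reads upon GFP KD were not called above the untagged sample. Cox4i1 is higher in Hdac6 than in the untagged sample, a call lost with the correction for G and C content. Cox7b2 holds at most 13 reads in any of the 7 samples.

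Of the 20 genes with lower p400 and the 24 with higher Hdac6, 5 were in both lists (25% and 20.8% of each), namely Atp5e, Atp5j, Cox6b2, Ndufa5 and Ndufab1. These shares were near those over all 86 genes, of which 27.9% were called for Hdac6 and 23.3% for p400. Of the 2 genes with higher Tip60, Atp5g2 also had lower p400. In rows grouped by motif, p400 upon GFP KD had a median of 32 reads in rows with an NRF1 motif and 29 in those without, and 23.5 in the 8 rows with TATAAA against 32 in the others. Lower p400 was called in 7 of the 28 rows with the NRF1 motif (25%) and in 22.5% of those without, and in 4 of the 27 rows with the ETS motif (14.8%) and 26.4% of those without. Higher Hdac6 was called in 14 of the 27 rows with the ETS motif (51.9%) and in 22.2% of those without. Those 27 rows belong to 21 genes, some of them with overlapping windows, and none of these Hdac6 calls passed with the correction for G and C content. The differences between rows with and without a motif were not tested. Rows with and without a divergent neighbour had nearly equal medians in p400 upon GFP KD, 32 and 31.

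Other genes of the pathway were read against the same background of 13.1% of all rows called lower in p400 upon Hdac6 KD. The first list held assembly factors and cytochrome c, and also Cyc1, cytochrome c1 of complex III, and Atpif1, the ATPase inhibitor. Of its 28 rows, 6 were called lower (21.4%), with a median of −39.7%. Of 14 rows of the citric acid cycle, 5 were (35.7%), with a median of −41.5%. Of 17 rows of the transcriptional regulators of mitochondrial genes, 6 were (35.3%), with a median of −44.9%, and 2 of these 6 are Gabpa rows that share reads with Atp5j. None of the 3 lists had a row called higher. Among the regulators, Nrf1 itself fell from 35 to 14 p400 reads (ratio 0.323, 0.160 to 0.615; adjusted p = 0.00548, exact test). Gabpa, which shares its promoter with Atp5j, fell from 53 to 23 (ratio 0.350, 0.205 to 0.581; adjusted p = 0.000725, exact test). Tfam, a factor in the packaging and transcription of mitochondrial DNA, lay at the edge of the threshold. Its row with the most p400 reads held 45 and 29 (ratio 0.520, 0.314 to 0.847; adjusted p = 0.0503, exact test) and did not pass, a neighbouring row with 45 and 28 passed (adjusted p = 0.0376, exact test), and the other row held 18 and 21 (ratio 0.941, 0.477 to 1.87). In the citric acid cycle, Fh1, fumarase, held 24 and 10 reads and Mdh2, malate dehydrogenase, 33 and 18, and both were called lower. Cycs, cytochrome c, held 26 and 19 and was not. In Tip60 upon Hdac6 KD none of the 59 rows of these lists was called.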

How the data were processed

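Coverage signal around each TSS was computed and deposited by the authors: per their methods, reads of identical sequence were merged with their number retained, Bowtie placed them on mm9 with up to 1 mismatch, and the placed reads were extended, cleared of simple repeats, and normalized to ppm in bins of 20 bp from −2000 to 2000 bp. The submitters' processing notes also name CASAVA 1.8.2. The Bowtie version is not given in the sources used here. Samples were grouped by their labels.

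Every deposited value was a whole multiple of 1 read (within 0.01 reads), and extended reads spanned 299 bp, or 148 to 149 bp in the Hdac6 files. Reads were the summed signal over the step and span, rounded. Ratios were scaled by normalizing reads, and log2 ratios and their medians had 0.5 reads added. The row position plus 1 matched the annotated starts best. Rows of p400 were joined by identifier and file order. Python 3.11.15, numpy 2.4.6, scipy 1.17.1 and matplotlib 3.10.9 were used, and the row test was tested on simulated data.

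The rule for naming genes took those with the highest and lowest p400 reads in each complex, up to 5 called genes with the largest change in each comparison, the isoform pairs, the 3 highest in the untagged sample, and Atp5g1; other genes named to complete a count or a complex, such as Sdhb, Sdhd, Atp5a1 and Atp5b, were chosen after their values were seen. Where a gene had several rows, that with the most p400 reads upon GFP KD was used. The members, lists and tests were chosen with earlier results of these data known. Alternatives were other windows, scaling, row selections, thresholds and a G and C correction from flank windows in bins of 2.5 points.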

Additional observations from a re-analysis of the deposited data

How the results depend on the processing

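Of 80 alternative values, 55 stayed within the limits set for them: 1.5 times the count, or the interval of the members' median from binomial order statistics. Counts are rows of 99 unless rows were left out, and medians are log2 ratios. With a window of 250 bp either side, the counts became 1 for Tip60 against untagged (2 as reported), 18 for Hdac6 against untagged (30), 0 for Tip60 upon Hdac6 KD (1) and 10 for p400 upon Hdac6 KD (23), and the Hdac6 median was 1.14 (0.81). With 1000 bp the medians were 0.53 for Hdac6 against untagged and −0.57 for p400 (−0.81), in p400 31 rows were called, and the called genes were Atp5e and Atp5g2 for Tip60 against untagged and Atp5sl for Tip60 upon Hdac6 KD. Scaling by flank reads gave counts of 4, 17 and 0 in the first 3 comparisons and an Hdac6 median of 0.58. The correction for G and C content gave 0 rows for Hdac6 against untagged and a reversed median of −0.275, and for Tip60 upon Hdac6 KD 0 rows and a reversed median of 0.066; p400 was called lower in 27 rows. When the top 1% of rows by untagged signal were dropped, 0 rows were called for Tip60 upon Hdac6 KD. At an adjusted p of 0.01 the counts were 1, 13, 0 and 12; for Hdac6 against untagged this was 13.1% of the members and 12.9% of all rows, and for p400 12.1% and 5.7%. A change of at least 1.5-fold in place of the test gave 35, 63, 29 and 66, and 11 for Hdac6 upon Tip60 KD. These were 35.4%, 63.6%, 29.3%, 66.7% and 11.1% of the members, against 28.5%, 58.8%, 32.6%, 43.8% and 17.6% of all rows, so the members lay below all rows in Tip60 upon Hdac6 KD and in Hdac6 upon Tip60 KD. The causes of these changes were not tested, other than the fewer reads of a narrow window, the stricter threshold and the row left out. The p400 count was 10 or more, and its median below 0, under every alternative listed. The lowest count, 10, was 10.1% of the members against 4.11% of all rows. The p400 median over all rows was also below 0 under each, from −0.375 to −0.551. No paired analysis was possible because each condition had 1 sample.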
